A study of Mus musculus with 2 samples.

Results

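The 6 S100 genes S100a4, S100a6, S100a8, S100a9, S100a10 and S100a11 were followed in Colon26 tumours, and 5 of them were measured on both arrays, among 13506 genes measured on both. A gene entered where a probe with its symbol had a value on both arrays. S100a9 had a value on array 2 only and is described separately. Colon26 is a mouse colon carcinoma line, and its cells had been placed beneath the mucosa of the rectum of Balb/c mice. RNA from the primary tumours (Cy5) and from their liver metastases (Cy3) was compared on 2 two-colour arrays, each with an independently grown primary tumour and metastasis. Both channels therefore share the cell line and the host strain, and no genotype or treatment separated them. The age of the mice is not given in the sources used here. The labels name Colon26 cells as the source of the RNA and describe no step that removed host cells. In such bulk RNA, fewer cells of a type and less RNA per cell cannot be told apart.

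S100 proteins are small calcium-binding proteins with a pair of EF-hand motifs, and most act as dimers that grip a target protein when calcium rises. Inside cells they bind myosin, annexins and other partners, and several are also released and then signal through receptors such as Ager and Tlr4. S100a4 has long been studied in tumour spread, and S100a8 with S100a9 forms calprotectin, an abundant protein of neutrophils and monocytes.

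Values are log ratios of the 2 channels, taken as log2. The sources used here do not state which channel is the numerator, so the positive and negative sides are reported without assigning either to the metastasis. The dyes were placed the same way on both arrays, and a dye bias of a probe cannot be told apart from a difference between the tissues. No intensities were analysed here, so the level of a gene in either tissue is unknown. Each of the 5 genes was read by 1 probe.

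The promoters of 4 members are shown because these genes lay on the same side of the ratio to very different extents. RefSeq's GRCm38.p6 promoter table held 5 of the 6 members, and S100a10 is named only. Each sequence is the 250 bases before the annotated start, 5′ to 3′ along the gene, which for these 4 is the plus strand. The windows are chr3:90612644-90612893 for S100a6, chr3:90668821-90669070 for S100a8, chr3:90603520-90603769 for S100a4 and chr3:93520246-93520495 for S100a11. Capitals mark matches, on either strand, to the TATA box TATAAA, the AP-1 element TGANTCA and ACGTG, the core of the hypoxia response element.
S100a6: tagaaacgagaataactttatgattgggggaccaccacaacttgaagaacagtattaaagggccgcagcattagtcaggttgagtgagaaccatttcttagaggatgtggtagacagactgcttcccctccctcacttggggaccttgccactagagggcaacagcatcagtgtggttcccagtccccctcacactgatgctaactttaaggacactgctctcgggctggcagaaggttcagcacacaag
S100a8: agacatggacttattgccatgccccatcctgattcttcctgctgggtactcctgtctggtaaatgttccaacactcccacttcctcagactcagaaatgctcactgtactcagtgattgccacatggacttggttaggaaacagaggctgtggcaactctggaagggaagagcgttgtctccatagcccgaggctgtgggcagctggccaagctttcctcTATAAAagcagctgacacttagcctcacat
S100a4: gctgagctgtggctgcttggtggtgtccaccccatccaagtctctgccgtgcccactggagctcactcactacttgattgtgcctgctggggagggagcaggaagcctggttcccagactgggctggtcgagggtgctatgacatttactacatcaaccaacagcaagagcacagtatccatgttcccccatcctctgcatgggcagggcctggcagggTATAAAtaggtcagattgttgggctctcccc
S100a11: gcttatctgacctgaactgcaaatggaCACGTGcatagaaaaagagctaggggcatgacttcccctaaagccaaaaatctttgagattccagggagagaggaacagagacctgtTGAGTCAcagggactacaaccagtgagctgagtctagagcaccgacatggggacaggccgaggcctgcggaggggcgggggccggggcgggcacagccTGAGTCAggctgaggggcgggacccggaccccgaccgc

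The TATA box began 31 bases before the start in S100a4 and 30 bases before it in S100a8, and 12.4% of 32851 promoter windows of this length held those letters. The S100a11 window held 2 matches to the AP-1 element, present in 6.75% of windows, and 1 stretch CACGTG that matches ACGTG on both strands, present in 16.6%. It also held 3 GC boxes, GGGCGG, which 32.7% of windows hold. The S100a9 window held 1, and those of S100a4, S100a6 and S100a8 none. The C/EBP element TTNNGNAA, found in 36.8% of windows, matched once in S100a8, 2 times in S100a9 and in none of the S100a4, S100a6 and S100a11 windows. None of the 5 elements matched in the S100a6 window. A match describes letters and does not show that a factor binds.

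All 5 measured members lay on the negative side on both arrays, as did 38.2% of all genes, while 33.9% were positive on both and 27.8% had mixed signs. S100a6 was the farthest from 0 and the only one of the 5 to pass the test. On a log2 scale its ratio was 2.45-fold. S100a8 and S100a4 followed without passing, and S100a10 and S100a11 lay near 0. The median of the 5 was -0.65, with -0.69 on array 1 and -0.56 on array 2, beside -0.02 over all genes. Limma's test against 0 called 2.9% of all genes at an adjusted p of 0.05, 0.777% on the negative and 2.12% on the positive side. An unadjusted p under 0.05 was reached by 3 of the 5, all negative, beside 12.5% of all genes on the negative and 15% on the positive side.

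**Figure D1:**
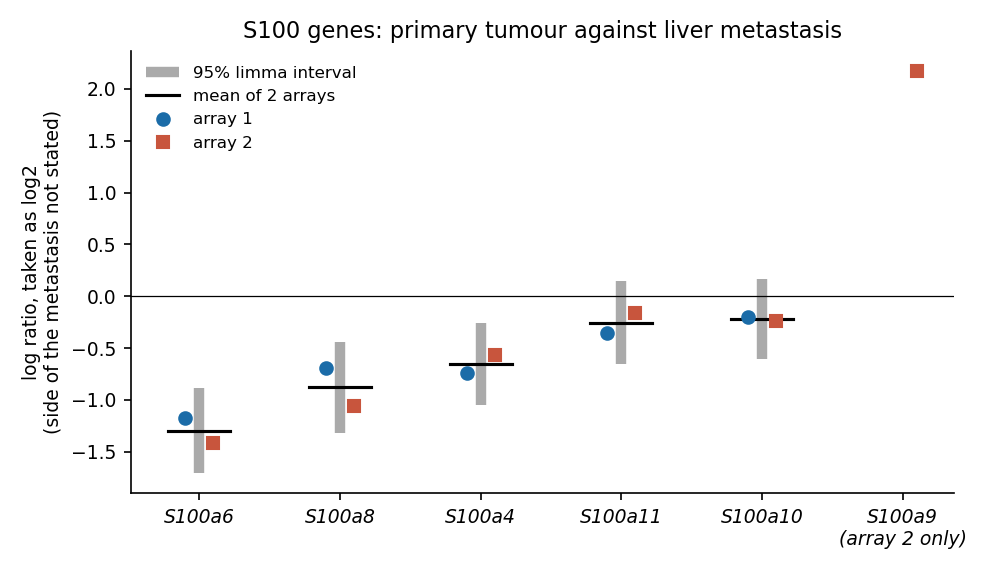
Log ratio (vertical axis, taken as log2) of each S100 gene on array 1 (circles) and array 2 (squares), with the mean (line) and limma's 95% interval (grey bar). The intervals of S100a6, S100a8 and S100a4 end below 0, those of S100a10 and S100a11 include 0, and S100a9, with array 2 only, sits at 2.17.

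S100a6, calcyclin, is a calcium sensor of proliferating cells, fibroblasts and epithelia that binds Cacybp and annexins. Its log ratio was -1.17 on array 1 and -1.42 on array 2. Both arrays lay below -1, where only 0.578% of all genes did on both. The mean was -1.29 ± 0.18 (SD, n = 2), and limma placed it between -1.70 and -0.88 with 95% confidence (adjusted p = 0.0386). A mean as low was found in 0.363% of genes. The gene passed in 6 of 9 alternatives, and limma's adjusted p ran from 0.0366 to 0.463 over the 9. It did not pass after quantile normalization (limma adjusted p = 0.0695), against a fold of at least 1.2 (0.0634) or when the variance was not moderated (0.463). Reading the values as natural logs leaves every p-value as it is, so that alternative always counts among the passes of a called gene.

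S100a8, the smaller subunit of calprotectin and a chemoattractant for leukocytes, had -0.69 on array 1 and -1.06 on array 2. The mean was -0.88 ± 0.26 (SD, n = 2), with a 95% interval from -1.31 to -0.44. It missed the threshold over all genes (limma adjusted p = 0.0668, unadjusted p = 0.00361). The adjusted p ranged from 0.0499 to 0.486 over 9 alternatives, and 1 of them, which kept genes with a value on 1 array, brought it just under the threshold. The spread between the arrays was the widest of the 5 members.

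S100a9, the partner subunit of S100a8 in calprotectin, had 2.17 on array 2 and a blank on array 1. On array 2 it therefore lay on the opposite side from S100a8, 3.24 log2 units above it. Only 0.611% of the 14410 genes with a value on array 2 were as high or higher. Among the 904 genes with a value on array 2 only, 5.31% were. The value has no replicate and was not tested, and the spot filter that left array 1 blank is not given in the sources used here. The probes of S100a8 and S100a9 thus disagreed on the array that measured both.

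S100a4, known as metastasin and also as fibroblast-specific protein, binds the heavy chain of non-muscle myosin encoded by Myh9. Its log ratio was -0.74 on array 1 and -0.56 on array 2. The mean was -0.65 ± 0.13 (SD, n = 2), with a 95% interval from -1.05 to -0.25. This gene did not pass over all genes (limma adjusted p = 0.0906, unadjusted p = 0.00832). Of all genes, 3.97% had a mean as low or lower.

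S100a10 is the S100 protein that does not respond to calcium, and it joins Anxa2 in a complex that holds plasminogen at the cell surface. It had -0.20 on array 1 and -0.24 on array 2, a mean of -0.22 ± 0.02 (SD, n = 2). The arrays agreed closely, and the 95% interval from -0.60 to 0.17 includes 0 (limma adjusted p = 0.385). S100a11, calgizzarin, which binds Anxa1, had -0.35 and -0.16, a mean of -0.26 ± 0.13. Its interval, from -0.66 to 0.14, also includes 0 (limma adjusted p = 0.331). For these genes, 30.3% and 26.7% of all genes had a mean as low or lower, and the annotated pseudogene S100a11-ps may share signal with the probe of S100a11.

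The order of the members was largely the same on both arrays, with S100a6 lowest on each. Of the 10 pairs of members, 8 had the same order on both. S100a6 lay below S100a10 by 0.97 log2 units on array 1 and by 1.18 on array 2, and below S100a8 by 0.48 and by 0.36. S100a4 lay below S100a11 by 0.39 and by 0.40. S100a4 and S100a8 changed places, since S100a4 was lower by 0.05 on array 1 and higher by 0.50 on array 2. S100a10 and S100a11 also changed places. An exact sign test of 2 arrays reaches a two-sided p of 0.5 at best, so the pairs are described and not tested.

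**Figure D2:**
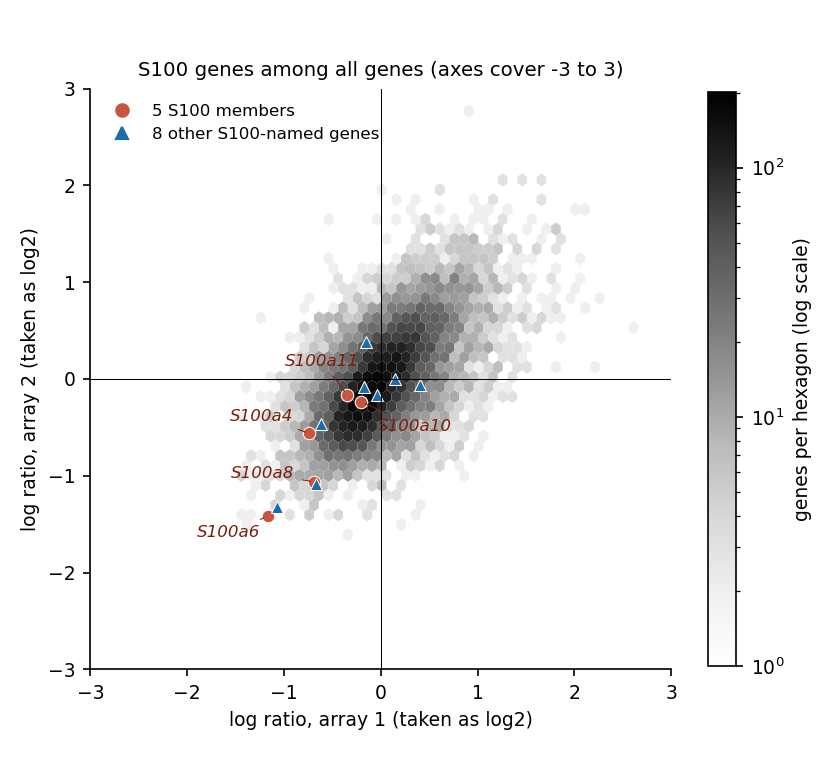
Each gene's log ratio on array 1 (horizontal) against array 2 (vertical), both taken as log2, with grey hexagons for the density of all 13506 genes, circles for the 5 S100 members and triangles for the 8 other genes with an S100 name. The members lie in the lower left, negative on both axes, with S100a6 at -1.17 and -1.42 at the edge of the density.

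Other S100 genes on the array were spread from near 0 to the range of S100a6. The other 7 listed S100 symbols that were measured had a median of -0.10, with 4 negative and 0 positive on both arrays and 3 mixed. No gene of the 7 was called by limma (0 calls), and 2 reached an unadjusted p below 0.05, both negative. S100a3, best known from the hair cuticle, had -0.67 and -1.09, a mean of -0.88 ± 0.30 (SD, n = 2; limma adjusted p = 0.0696). S100a14, an epithelial member, had -0.62 and -0.47, a mean of -0.54 ± 0.11 (limma adjusted p = 0.115). Both were close to S100a8 and S100a4 in size.

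The remaining listed S100 genes had means near 0. S100a5 and S100a13 had means of -0.10 ± 0.09 and -0.12 ± 0.07. S100a1, of heart and skeletal muscle, and S100b, of glia, had 0.07 ± 0.11 and 0.17 ± 0.33 with opposite signs on the arrays. S100pbp, which encodes a binding partner and no S100 protein, had 0.12 ± 0.38. A probe annotated with the old symbol S100a15 had -1.07 and -1.32, a mean of -1.19 ± 0.17, and was called (limma adjusted p = 0.0438), also in 5 of 9 alternatives. That symbol is a synonym of both S100a14 and S100a7a in RefSeq, so the gene is uncertain, and the probe was singled out after its value was seen. Without S100pbp, 10 of these 12 S100 genes were negative on both arrays, beside 38.2% of all genes. The 2 called were S100a6 and the uncertain probe, which is counted here as a gene of its own. Over all genes, 2.9% were called.

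In RefSeq's gene order, 12 protein-coding genes from S100a1 to S100a9 stand next to each other on chromosome 3. S100a11 and S100a10 are direct neighbours farther along, with 56 protein-coding genes between S100a9 and S100a11. Neighbouring S100 genes had unequal ratios. S100a5, which stands between S100a4 and S100a6, had -0.04 and -0.16. S100a6 lay below it by 1.13 log2 units on array 1 and by 1.25 on array 2, and S100a4 by 0.70 and by 0.40.

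Genes outside the cluster lay on both sides. Pglyrp4, a peptidoglycan recognition protein next to S100a9, had 0.74 and 1.28, a mean of 1.01 ± 0.38 (SD, n = 2; limma adjusted p = 0.0636). Chtop, next to S100a1, had -0.10 ± 0.04. Between S100a9 and S100a11, 22 genes were measured, 9 negative and 6 positive on both arrays, with a median of -0.03. An unadjusted limma p under 0.05 was reached by 8 of the 22, counting both sides. Limma called 2 of the 22, beside 2.9% of all genes. The 2 were the epidermal genes Crct1 at 1.37 ± 0.17 and Lce3b at 1.35 ± 0.06, both called in 6 of 9 alternatives. Sprr1b at 0.58 ± 0.06 and Sprr2e at 1.38 ± 1.59 were positive on both arrays and not called. Toward the negative side lay Sprr2i at -0.68 ± 0.08, Lce1f at -0.50 ± 0.24 and Lce3c at -0.44 ± 0.09, none of them called. These Crct1, Lce and Sprr genes were named after their values were seen. Of the 17 genes listed as neighbours, 11 were measured with a median of 0.01. Limma called 0 of these, and 4 had an unadjusted p under 0.05, all positive. Among the 4 were Npr1 at 0.68 ± 0.10, Gatad2b at 0.50 ± 0.16 and Snapin at 0.48 ± 0.15. Over all genes, 15% had such a p on the positive and 12.5% on the negative side.

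**Figure D3:**
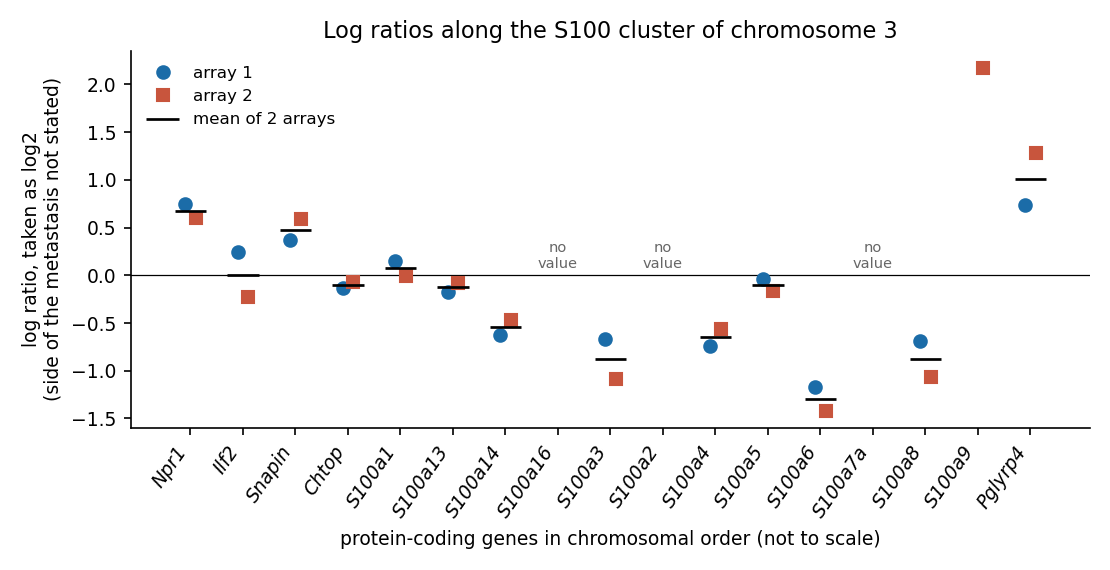
Log ratio (vertical axis, taken as log2) on array 1 (circles) and array 2 (squares), with the mean as a line, for protein-coding genes in their order along the S100 cluster, not to scale. S100a5, at -0.10, stands near 0 between S100a4 at -0.65 and S100a6 at -1.29, and S100a9, with array 2 only, and Pglyrp4 are positive.

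Partners of the S100 proteins lay on both sides of the ratio. Of 12 annexins, calcium-dependent membrane-binding proteins, 11 were measured, 3 negative and 2 positive on both arrays and 6 mixed. The median of their means was -0.02, while array 1 alone gave 0.09 and array 2 alone -0.27. Limma called 0 of the 11, with 2 on each side at an unadjusted p under 0.05. Anxa2, the partner of S100a10, had -0.44 and -0.75, a mean of -0.59 ± 0.22 (SD, n = 2; limma adjusted p = 0.113), farther from 0 than S100a10 on both arrays. Anxa1, the partner of S100a11, had -0.02 ± 0.36. Anxa4 and Anxa6 lay on the positive side at 0.89 ± 0.19 and 0.57 ± 0.18, and Anxa3 had -0.44 ± 0.07.

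Receptors and co-receptors of released S100 proteins held 1 call among 9 measured of 12. Cd14, a co-receptor of Tlr4, had -1.43 and -0.96, a mean of -1.20 ± 0.33 (SD, n = 2; limma adjusted p = 0.0475). It passed in 2 of 9 alternatives, natural logs and genes on 1 array kept, with limma's adjusted p from 0.0378 to 0.484. Centring the arrays was enough to end the call. Ly96, the other co-receptor of Tlr4, lay on the opposite side at 0.85 and 1.23, a mean of 1.04 ± 0.27, without passing (limma adjusted p = 0.0532). Tlr4 itself had -0.16 ± 0.07 and Ager, the receptor RAGE, 0.07 ± 0.53. Il10ra and Cd68, also on the list, had -0.34 ± 0.19 and -0.20 ± 0.01. The list had 5 genes negative on both arrays, 1 positive and 3 mixed, and a median of -0.16.

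Of 15 genes of the plasminogen system and other S100a10 partners, 11 were measured, and limma called 0. The median of their means was -0.04, while the medians on the single arrays were 0.06 and 0.08. On the positive side 2 had an unadjusted p under 0.05 and on the negative side 1. Plat, the tissue plasminogen activator, had 0.87 and 1.42, a mean of 1.14 ± 0.39 (SD, n = 2; limma adjusted p = 0.0553). Serpinb2, an inhibitor of plasminogen activators, had 0.95 ± 0.34, and Plau, urokinase, 0.25 ± 0.09. Htr1b, a serotonin receptor that S100a10 binds, had -0.48 ± 0.20. Plg, plasminogen, and Plaur, the urokinase receptor, lay near 0 at -0.04 ± 0.18 and -0.02 ± 0.11.

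Among 23 intracellular targets, 20 were measured, and 15 of these were negative on both arrays, 4 positive and 1 mixed. Over all genes, 38.2% were negative on both arrays, 33.9% positive and 27.8% mixed. The median was -0.26, beside -0.02 over all genes. Limma called 0 on the negative and 1 on the positive side, Ccn2, at 1.51 and 1.31, a mean of 1.41 ± 0.14 (SD, n = 2; adjusted p = 0.0332). Ccn2 is a secreted growth factor of the matrix, not an intracellular protein, and it passed in 6 of 9 alternatives. Sptbn1, a spectrin of the membrane skeleton, had -0.89 ± 0.02, while Des, desmin, had 0.89 ± 0.16 and Sugt1, a target of S100a6, 0.86 ± 0.32. Of the partners named above, Myh9 had -0.32 ± 0.15 and Cacybp -0.34 ± 0.07, both negative on both arrays and neither past the threshold. Myh10, also on the list, had 1.66 on array 2 only. Of the 20, 5 had an unadjusted p under 0.05 on the negative side and 3 on the positive side. Over all genes these shares were 12.5% and 15%.

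The subunits of the NADPH oxidase, which calprotectin helps to activate in phagocytes, were measured for 4 of 6 genes. Limma made 0 calls among them and 0 fell under an unadjusted p of 0.05. Cybb, Ncf1 and Rac2 lay on the positive side at 0.41 ± 0.30, 0.33 ± 0.07 and 0.32 ± 0.16 (SD, n = 2), and Cyba had -0.36 ± 0.33. Other EF-hand proteins were measured for 18 of 22 genes, with a median of -0.02, 8 negative and 7 positive on both arrays. Limma called 0 of them, with 3 on each side at an unadjusted p under 0.05. Capn1, a calcium-activated protease, had -0.69 ± 0.08 and Calml3, a calmodulin-like protein, -0.58 ± 0.10. Calb1, calbindin, had 0.79 ± 0.12 and Tnnc2, troponin C of fast muscle, 0.63 ± 0.26.

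Cell type markers were read beside the members because S100a8 and S100a9 are made by myeloid cells and S100a4 by fibroblasts. Of 8 neutrophil markers, 2 were measured on both arrays, and both lay on the side opposite to S100a8. Mpo, myeloperoxidase, had 1.19 and 0.75, a mean of 0.97 ± 0.31 (SD, n = 2; limma adjusted p = 0.0608), and Ly6g had 0.37 ± 0.16. The neutrophil granule genes Ltf and Ngp had -0.09 and -0.09, and the chemokine receptor Cxcr2 -0.10, each on array 2 only. On that array S100a9 had 2.17.

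Macrophage markers divided, with 3 of 5 negative and 2 positive on both arrays and a median of -0.20. Cd14 was called, Fcgr1 had 1.12 ± 0.52 (SD, n = 2), Cd163 0.66 ± 0.38 and Cd68 -0.20 ± 0.01. Adgre1, the F4/80 antigen, had 1.43 and Mrc1, the mannose receptor, -0.27, each on array 2 only. Of 4 fibroblast markers measured, Col1a1 had -2.93 ± 0.18 and was called (limma adjusted p = 0.0184), also in 7 of 9 alternatives. Of the others, Col3a1 had -0.40 ± 0.45, Col1a2 -0.24 ± 0.19 and Pdgfra 0.19 ± 0.33. The fibroblast proteoglycans Lum and Dcn lay on the positive side, at 1.39 on array 1 only and 0.64 on array 2 only. The median of the 4 was -0.32 and became -0.025 with these 2 genes kept, so the fibroblast markers lay on both sides. Their part in the ratios of S100a4 and S100a6 was not tested. Vim, vimentin, an intermediate filament of mesenchymal cells, had -1.02 ± 0.17 and was called (limma adjusted p = 0.0488). It passed in 2 of 9 alternatives only, natural logs and genes on 1 array kept.

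Liver markers did not lie on 1 side. Of 6 hepatocyte genes measured on both arrays, 4 were negative and 2 positive on both. Apoa1, also on the list, had 0.75 on array 1 only. Alb, albumin, had -0.34 ± 0.43 (SD, n = 2), Ttr 0.80 ± 0.06, Trf 0.68 ± 0.44, Fah -0.95 ± 0.50 and Apoc3 -0.51 ± 0.07, and limma made 0 calls, with 2 genes on each side under an unadjusted p of 0.05. Colonic epithelium markers had 3 negative and 3 positive of 6, with Krt20 at 0.49 ± 0.25, Vil1 at -0.42 ± 0.17, Lgals4 at -0.36 ± 0.05 and Cdx2 at -0.38 ± 0.33. Limma called 0 of these 6, with 1 on each side at an unadjusted p under 0.05.

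**Figure D4:**
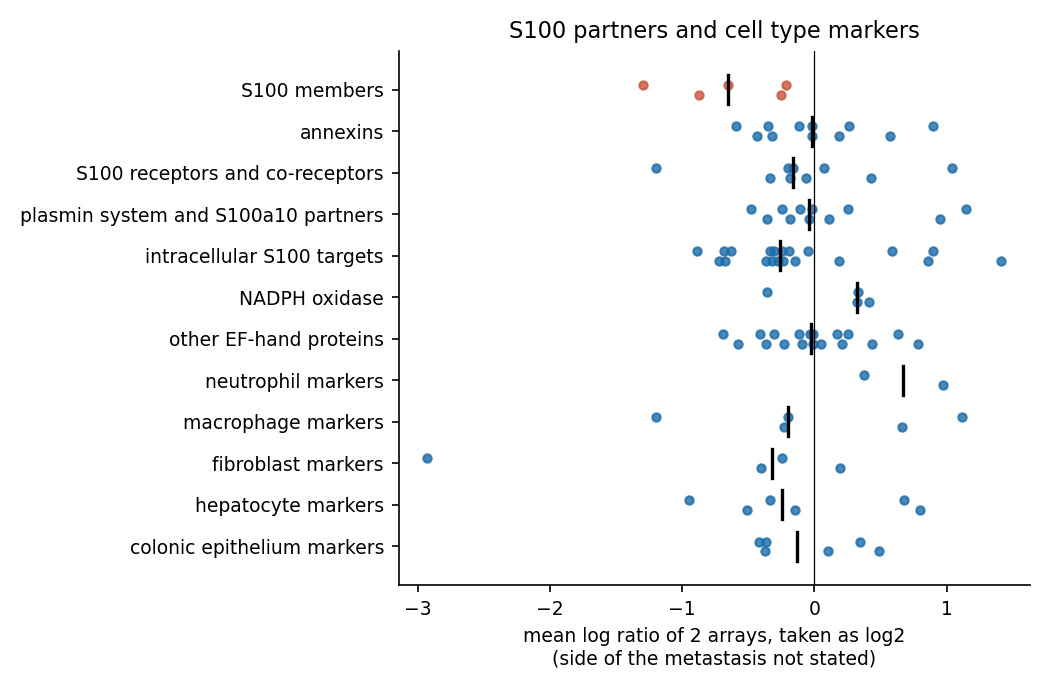
Mean log ratio (horizontal axis, taken as log2) of each measured gene, as 1 point, in the S100 members, their partner lists and the cell type markers, with the median of each list as a black line. The members' median of -0.65, without S100a9, is the lowest of the medians drawn, and every partner list spans both sides of 0. The 7 other listed S100 genes, with a median of -0.10, are not drawn. With S100a9 kept on its 1 array the members' median is -0.45.

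The genes most like each member were taken by the distance between their pairs of log ratios on the 2 arrays. The nearest to S100a8 was S100a3, at a distance of 0.03 log2 units, followed by Olfr765 at 0.04. Nearest to S100a6 were Atf5, a transcription factor, at 0.07 and Sulf2, a sulfatase of heparan sulfate chains, at 0.08. Only 2 genes lay within 0.1 of S100a6 and 24 within that distance of S100a8. Rgr and Serpinb9d were nearest to S100a4, Mcm3ap and Sema7a to S100a10, and Olfr733 and Elp2 to S100a11. Within 0.1 of these 3 members lay 48, 517 and 332 genes, so their nearest genes are not distinctive. Over the 5 members the count fell as the mean lay farther from 0, so a low count does not make the nearest genes distinctive. Predicted models and clones were not counted.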

How the data were processed

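The deposited table gives 1 log ratio per probe and array, taken as log2. How the authors set its log base, numerator, background correction, spot filter and normalization is not stated in the labels. A natural log would multiply every value by the same factor and leave p-values as they are. The table lists 23473 probes, 18837 of them with values on both arrays. GEO's platform annotation gave 16631 probes 1 symbol, 0 several and 6842 none. Of these symbols, 12622 were current in RefSeq GRCm38.p6, 3947 were replaced by the current symbol of their only synonym match and 62 stayed as given. Probes of a gene were averaged, giving 13506 genes. The table holds no level of a gene in a single tissue, and having 2 arrays limits the precision.

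The test against a ratio of 0 used limma 3.58.1 under R 4.3.3 (intercept, eBayes, Benjamini-Hochberg over all genes, threshold 0.05), with 1 residual and 4.06 prior degrees of freedom. On simulated ratios for 13506 genes, changes of 1 log2 unit were recovered in 18% and of 2 units in 96% of cases, and 17 of 174 calls were false, more than the threshold of 0.05 allows for. The members and lists were chosen with earlier results of these data known. Named genes were all members, all other listed S100 genes, up to 4 per other list with the largest ratio on their weaker array among genes of 1 sign, called genes, and the 2 nearest genes per member, leaving out predicted models. Alb and Vim were added as checks. Any other gene was picked with its values known. Alternatives changed centring, scaling, normalization, moderation, the prior, the minimum fold, the unit of the fit, missing values, the log base and the arrays used. Motifs were searched in 250 bases before each start. Figures were drawn with matplotlib 3.10.9.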

Additional observations from a re-analysis of the deposited data

How the results depend on the processing

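All 5 S100 members stayed negative after centring, scaling and quantile normalization and on each array alone. The other alternatives leave a member's mean as it is or multiply it by a constant, so they could not change its sign. S100a6 had -1.30 after quantile normalization, and -1.29 both with a minimum fold and without moderation, and was not called in these 3 settings. S100a8 stayed at -0.88 and was called when genes on 1 array were kept, which changes the set of genes adjusted over. Positive and negative calls over all genes, 286 and 105 as reported, were 189 and 52 after scaling to equal spread, 1 and 3 after quantile normalization, 867 and 220 with genes on 1 array kept, 0 and 0 without moderation, 76 and 32 with a minimum fold, and 184 and 54 on probes. With 1 residual degree of freedom, hardly any gene can pass without moderation. The other causes were not tested.

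List medians have no test. The members' median of -0.65 moved to -0.45 once S100a9 was kept with its 1 array, and to -0.94 if the values are natural logs. Read as natural logs, the medians were -0.23 for S100 receptors, -0.058 for the plasminogen list, -0.38 for intracellular targets, 0.47 for the NADPH oxidase, 0.97 for neutrophil and -0.29 for macrophage markers. The plasminogen median was -0.016 after centring, -0.0051 after scaling and -0.028 after quantile normalization, and the macrophage median -0.18, -0.18 and -0.20. The neutrophil median turned from 0.67 to -0.091 with genes on 1 array kept. On single arrays, medians ran from -0.27 to 0.09 for annexins, -0.20 to -0.16 for receptors, 0.06 to 0.076 for the plasminogen list, -0.28 to -0.205 for intracellular targets and 0.20 to 0.355 for the NADPH oxidase. They ran from -0.064 to -0.01 for EF-hand proteins, -0.070 to 0.24 for cluster neighbours, -0.191 to -0.190 for macrophage and -0.12 to -0.035 for colonic epithelium markers. No paired analysis was possible because the arrays form 1 group of ratios. Leaving out an array leaves a value with no test. Anxa1 and Plaur, near 0 as reported, turned positive after centring (0.0026 and 0.0069) and scaling (0.024 and 0.013). No other named gene whose refits on both arrays were compared changed side. Unnamed genes were not followed, and those with a mean just below 0, such as Anxa5 at -0.020, can change side too. Genes given with mixed signs, such as S100a1, S100b, S100pbp, Ager, Plg and Pdgfra, change side between the single arrays. The nearest genes of each member were not refitted.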
